A study of Mus musculus with 4 samples.

Results

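The integrated stress response was described here by 10 genes, the transcription factor gene Atf4 and 9 genes that Atf4 is known to induce: Atf3, Atf5, Ddit3, Trib3, Asns, Chac1, Psat1, Phgdh and Ppp1r15a. The genes were taken by symbol as known members of this pathway, and each symbol had 1 entry among the 53465 entries of the count files. All 10 were among the 15766 genes with enough counts to be tested. RNA-Seq counts came from cultured primary (1°) mouse oligodendroglial cells (OGCs) that had been differentiated for 3 days (3ddiff) after shake-off and depletion of microglia. The cells were from forebrain of mice at postnatal day 2 to 4. Both genotypes carried the Zfp276 allele with loxP sites on both chromosomes (Zfp276 fl/fl), and only the Zfp276cko cells carried Sox10::Cre in addition, a BAC transgene active in the oligodendroglial lineage. There were 2 culture preparations per genotype, each pooled from 3 mice, on a mixed C3H and C57Bl/6J background, and the study used a Rosa26 stopflox tdTomato allele in mice for these cultures to recognise Zfp276cko newborns. As ctrl cells had no Cre, loss of Zfp276, presence of Cre and any tdTomato expression that Cre switched on cannot be told apart in these libraries.

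Cells under stress phosphorylate the translation initiation factor eIF2, which lowers protein synthesis in general but favours translation of the Atf4 mRNA. Atf4 protein then induces genes of amino acid supply, further transcription factors such as Atf3 and Ddit3 (CHOP), and Ppp1r15a (GADD34), which directs a phosphatase to eIF2 and ends the response. Because Atf4 is controlled largely at translation, its mRNA level is not a measure of its activity. Mutations in eIF2B, the exchange factor that eIF2 phosphorylation inhibits, cause vanishing white matter disease.

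Between 21068322 and 26599809 reads were counted per library. Normalized counts of Zfp276 were 1648 and 2230 for ctrl as against 490 and 503 for Zfp276cko, in keeping with the labels. Such values are counts rescaled to an effective library size common to all libraries, the mean of the 4, and values of a genotype are given below in the order of replicates 1 and 2. Markers of oligodendroglia were abundant in all 4 libraries, where the 14 listed genes added up to between 329951 and 631132 normalized counts. The ctrl replicates stood far apart from each other, with a biological coefficient of variation of 0.354 against 0.0480 between the Zfp276cko replicates. Ctrl replicate 1 was at least 2-fold above ctrl replicate 2 for 7.62% of the genes tested and at least 2-fold below it for 7.71%.

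The 10 genes fell into unequal groups. Ddit3, Atf3 and Ppp1r15a had their 2 highest values in the Zfp276cko libraries, with means 1.73-fold to 2.69-fold above ctrl, and Psat1 was lower at 45.2% of the ctrl mean. Atf4 itself and the other 5 genes had both Zfp276cko libraries between the ctrl libraries. For Atf5, Trib3, Chac1, Asns and Phgdh the ctrl replicates differed from each other by 3.02-fold to 6.34-fold, with replicate 1 always the higher.

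**Figure D1:**
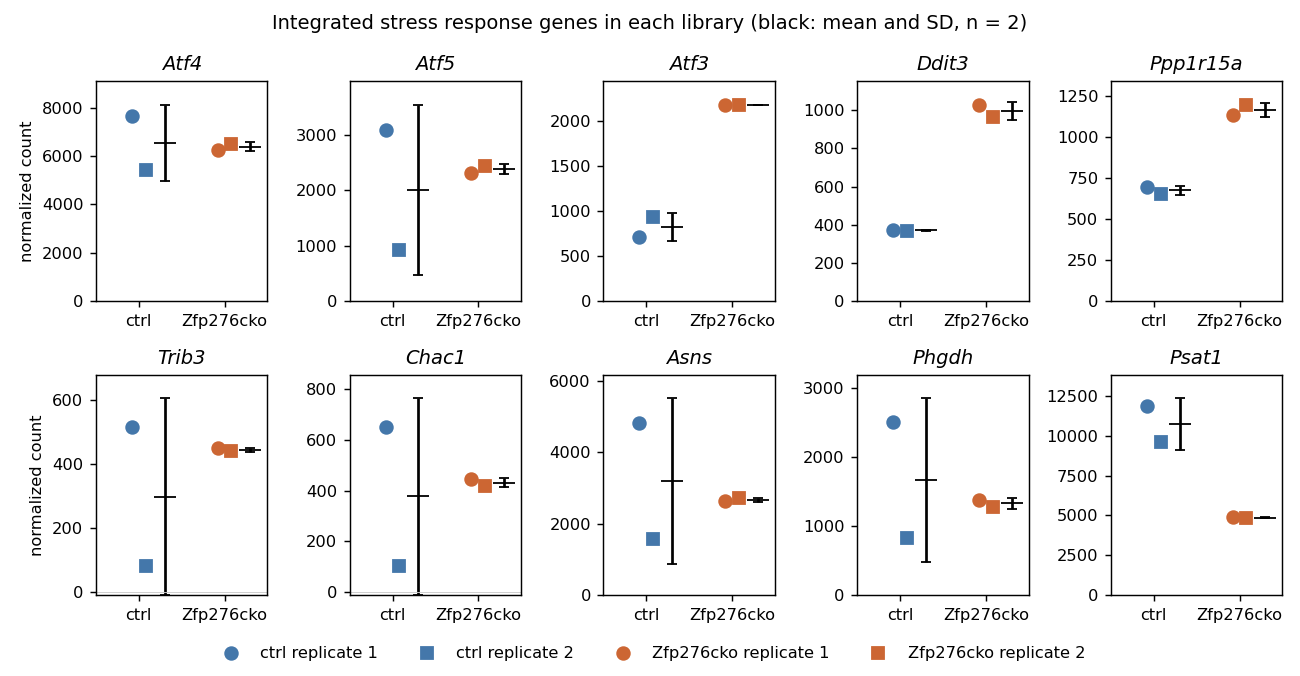
Normalized counts of the 10 genes, on linear axes, in ctrl (blue) and Zfp276cko (orange) libraries, with circles for replicate 1, squares for replicate 2 and a black bar for the mean and SD (n = 2). Ddit3, Atf3 and Ppp1r15a lie higher and Psat1 lower in both Zfp276cko libraries, whereas ctrl replicates 1 and 2 lie on either side of the Zfp276cko libraries for the other 6 genes.

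Sequences upstream of these genes are described because Atf4 acts through a short element, the C/EBP-ATF response element. The stretches of Atf3, Chac1 and Ppp1r15a are shown because each holds a match to an element searched for, not because of their expression. The RefSeq windows of build GRCm38.p6, from 250 bases before to 50 bases after each RefSeq start used, were searched on both strands for TGATGNAA, the core of that element, for TGACGTCA, the cAMP response element, and for the endoplasmic reticulum stress element. For Atf3 and Psat1 the annotated gene extends upstream beyond these windows, and any start there was not searched. All 10 genes had a window, and with 2 starts each for Atf5 and Psat1 there were 12. The C/EBP-ATF core occurred in 4 of them, those of Atf3, Chac1, Trib3 and Asns, compared to 3.97% of all 32851 windows. The cAMP response element occurred in that of Ppp1r15a, and in 1.79% of all windows. The endoplasmic reticulum stress element was in 0 of the 12 windows and in 0.119% of all. No window of these genes held more than 1 match, so that motifs did not overlap. In the stretches below, the matched letters are in capitals, and each stretch is written 5′ to 3′ on the strand of its gene.
Atf3, minus strand, chr1:191183341-191183540: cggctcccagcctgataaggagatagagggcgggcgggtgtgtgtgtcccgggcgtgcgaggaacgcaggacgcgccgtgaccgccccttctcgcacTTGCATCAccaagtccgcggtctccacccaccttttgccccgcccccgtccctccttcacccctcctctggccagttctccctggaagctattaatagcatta
Chac1, plus strand, chr2:119351029-119351228: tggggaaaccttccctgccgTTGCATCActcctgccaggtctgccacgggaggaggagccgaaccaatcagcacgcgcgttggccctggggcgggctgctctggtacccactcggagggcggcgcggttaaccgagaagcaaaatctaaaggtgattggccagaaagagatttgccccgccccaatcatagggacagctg
Ppp1r15a, minus strand, chr7:45526269-45526329: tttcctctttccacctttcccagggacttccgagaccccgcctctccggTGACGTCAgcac
The match of Atf3 begins 110 bases and that of Chac1 193 bases before the start, and both read TTGCATCA on the gene's strand, the reverse complement of the core. Asns had TGATGAAA 23 bases before its RefSeq start, and Trib3 had TTACATCA from base 15 of its transcript. Genes with a match were thus found both where the Zfp276cko libraries were apart from ctrl (Atf3) and where they lay between the ctrl replicates (Chac1, Trib3 and Asns). The windows of Atf4, Atf5, Ddit3, Psat1 and Phgdh did not hold these letters.

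Atf4, the central transcription factor of the response, occupies bases 80255184 to 80257541 of chromosome 15 (build mm10, plus strand). Its normalized counts were 7663 and 5442 for ctrl as against 6262 and 6516 for Zfp276cko. Both Zfp276cko values lay between the ctrl values. On the log2 scale, Zfp276cko minus ctrl, the fitted difference was −0.04 ± 0.19 (SE), with a 95% interval from −0.56 to 0.49 and an adjusted p of 0.949 in the quasi-likelihood test of edgeR. The sign depended on the ctrl library used, as the value became 0.23 when ctrl replicate 1 was left out and −0.27 when ctrl replicate 2 was.

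Atf5, a close relative of Atf4 that is also controlled at translation (chromosome 7, 44812256 to 44816658), counted 3093 and 917 for ctrl as against 2316 and 2441 for Zfp276cko. The 3.37-fold gap between the ctrl libraries enclosed both Zfp276cko libraries. Its log2 difference was 0.25 ± 0.59 (SE) with an edgeR adjusted p of 0.875, and the 95% interval from −1.35 to 1.85 was too wide to set a direction. Of its annotated exon bases, 82 of 1993 overlap Nup62 and Il4i1 on the opposite strand, and the strand setting of the counting is not given in the sources used here.

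Ddit3, which encodes the transcription factor CHOP that links prolonged stress to cell death, lies on chromosome 10 from 127290774 to 127296288. The ctrl replicates were close to each other at 374 and 367 normalized counts, and the Zfp276cko replicates counted 1029 and 963. The lowest Zfp276cko value was thus far above the highest ctrl value. The mean of 370 ± 5.05 (SD, n = 2) in ctrl compares with 996 ± 46.5 (SD, n = 2) in Zfp276cko cells, a 2.69-fold difference. The log2 difference was 1.43 ± 0.12 (SE; 95% interval 1.11 to 1.74), and by its unadjusted p of 0.000179 in edgeR the gene had rank 20 among the 15766 tested. The adjusted p of 0.0962 missed the threshold of 0.05, while DESeq2 gave an adjusted p of 2.55e-11. Of Ddit3, 81 of the 1713 annotated exon bases overlap genes on the opposite strand, Mars and Gm4189.

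Atf3, a stress-induced member of the same leucine zipper family (chromosome 1, 191170296 to 191218039), counted 711 and 935 for ctrl as against 2177 and 2173 for Zfp276cko. Both Zfp276cko libraries exceeded the higher ctrl library more than the ctrl libraries differed from each other. The 2.64-fold difference, 1.40 ± 0.16 (SE; 95% interval 0.97 to 1.84) on the log2 scale, had an adjusted p of 0.113 in edgeR and 1.20e-08 in DESeq2. In contrast to the genes of amino acid supply, Atf3 was lower in ctrl replicate 1 than in ctrl replicate 2.

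Ppp1r15a, the feedback subunit of the eIF2 phosphatase (chromosome 7, 45522916 to 45526268), counted 696 and 657 for ctrl as against 1138 and 1200 for Zfp276cko. The genotypes did not overlap, and replicates of each were close. The difference was 1.73-fold, or 0.79 ± 0.10 (SE; 95% interval 0.51 to 1.07) as log2, with an adjusted p of 0.121 in edgeR and 3.74e-04 in DESeq2.

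**Figure D2:**
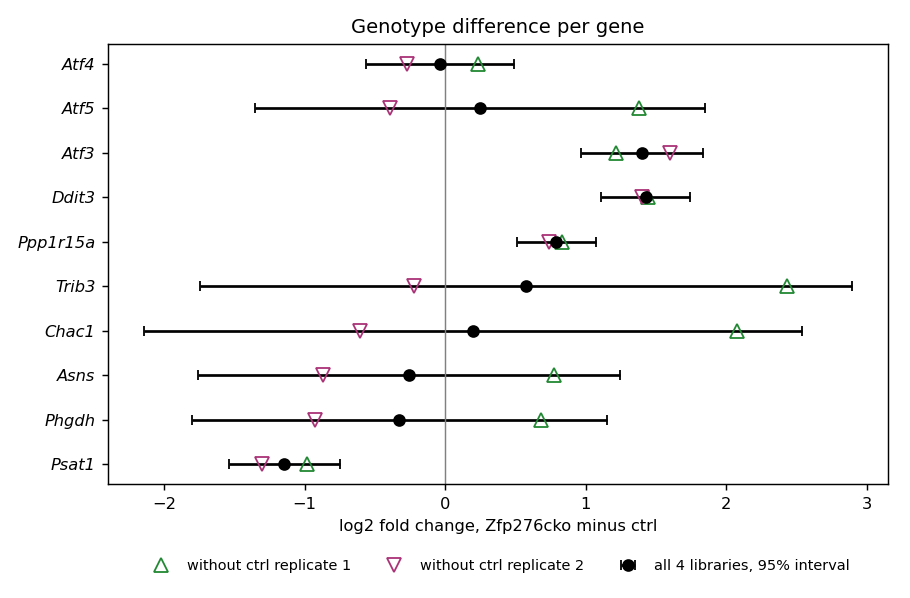
Log2 difference of each gene, Zfp276cko minus ctrl, from edgeR with all 4 libraries (black, with the 95% interval) and without ctrl replicate 1 (green triangles) or ctrl replicate 2 (purple triangles). The intervals of Atf3, Ddit3, Ppp1r15a and Psat1 lie on 1 side of 0, and for the other 6 genes the triangles lie on opposite sides of 0.

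Trib3 (chromosome 2, 152337422 to 152344032) encodes a pseudokinase that Atf4 and CHOP induce and that acts back on both. Its normalized counts were 515 and 82.1 for ctrl as against 449 and 440 for Zfp276cko. The Zfp276cko libraries were thus close to ctrl replicate 1 and far from ctrl replicate 2. The log2 difference of 0.57 ± 0.85 (SE; edgeR adjusted p = 0.791) became 2.43 when ctrl replicate 1 was left out and −0.23 when ctrl replicate 2 was.

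Chac1, an enzyme that degrades glutathione (chromosome 2, 119351229 to 119354381), followed the same order with 652 and 102 for ctrl as against 444 and 418 for Zfp276cko. With a ratio of 6.34 this was the widest gap between ctrl libraries among the 10 genes. Its log2 difference was 0.20 ± 0.86 (SE), with an edgeR adjusted p of 0.937. Leaving out ctrl replicate 1 gave 2.07, and leaving out ctrl replicate 2 gave −0.61.

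Asns, which makes asparagine (chromosome 6, 7675169 to 7693254), counted 4836 and 1562 for ctrl as against 2632 and 2711 for Zfp276cko. Phgdh, the first enzyme of serine synthesis from glycolysis (chromosome 3, 98313170 to 98339990), counted 2502 and 827 for ctrl as against 1383 and 1272 for Zfp276cko. Both genes thus had a ctrl library above and another below the Zfp276cko libraries. The log2 difference was −0.26 ± 0.55 (SE; edgeR adjusted p = 0.859) for Asns and −0.33 ± 0.54 (SE; 0.815) for Phgdh. Without ctrl replicate 1 they were 0.78 and 0.68, and without ctrl replicate 2 they were −0.87 and −0.93. Phgdh is also abundant in astrocytes, whose 9 tested markers added up to 37730 and 29112 for ctrl as against 34880 and 33148 for Zfp276cko, the same order of libraries as for Phgdh. Gfap, with 17641 and 8463 for ctrl, made up much of this sum, and ctrl replicate 1 was the higher in 4 of the 9 markers (median log2 difference between the ctrl replicates −0.96). Between the ctrl replicates, the sum and Gfap thus had the same order as Phgdh, while most single markers had the opposite order. The part of other cell types in the level of Phgdh was not tested.

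Psat1, which carries out the step of serine synthesis after Phgdh (chromosome 19, 15904678 to 15947337), differed from the other enzymes. Its normalized counts were 11874 and 9588 for ctrl as against 4874 and 4835 for Zfp276cko. The Zfp276cko values were far below both ctrl values and close to each other. The log2 difference was −1.14 ± 0.14 (SE; 95% interval −1.54 to −0.75), with an adjusted p of 0.120 in edgeR and 2.04e-08 in DESeq2. In bulk RNA, fewer cells of a type and less RNA per cell cannot be told apart. Oligodendroglial markers were also lower, as 13 of 14 had Zfp276cko values below those of ctrl, against 23.7% of all genes, and their sums were 547891 and 631132 for ctrl as against 329951 and 335312 for Zfp276cko (median log2 difference −0.86). The exception was Sox10, a marker of the whole lineage, with 18135 and 20744 for ctrl as against 17805 and 18611 for Zfp276cko (log2 difference −0.09 ± 0.13 SE, edgeR adjusted p = 0.771). Olig1 and Olig2, also transcription factors of this lineage, were among the 13 lower markers. Their log2 differences were −0.86 ± 0.12 and −0.60 ± 0.11 (SE, edgeR adjusted p 0.123 and 0.162). The part of these cells in the level of Psat1 was not tested.

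A gene was called when its adjusted p was 0.05 or less, its log2 difference 0.6 or more in size and its mean normalized count 20 or more. By this rule edgeR called 0 of the 10 genes and 0% of all genes tested, and the smallest adjusted p among all genes was 0.0725. Without adjustment, 4 of the 10 genes had p-values of 0.05 or less, against 15.6% of all genes, and the same 4 passed the limits on difference and mean, against 8.13%. Of these, Ddit3, Atf3 and Ppp1r15a were higher, against 5.11% of all genes, and Psat1 was lower, against 3.02%. DESeq2 called the same 4 genes, against 4.95% of all genes, with 3 higher (2.79%) and 1 lower (2.16%). The log2 differences of these 4 genes in edgeR kept their sign when either ctrl replicate was left out. Those of the other 6 had opposite signs without ctrl replicate 1 and without ctrl replicate 2. Genotypes did not overlap in 4 of the 10 genes and in 50.5% of all genes, so that a lack of overlap alone was no more frequent here than elsewhere. The Zfp276cko values were the highest for 3 genes (26.8% of all), the lowest for 1 (23.7%) and between the ctrl values for 6 (27.7%). In 5 of the 10 genes the ctrl libraries were at least 2-fold apart, against 15.3% of all genes, and in each of the 5 replicate 1 was higher (7.62%). The Zfp276cko replicates were that far apart in 0 of the 10 genes and in 1.17% of all. The median log2 difference was 0.22 over the 10 genes and −0.0013 over all genes, and for the 10 it moved to 1.03 without ctrl replicate 1 and to −0.33 without ctrl replicate 2.

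Levels were compared between genes as normalized counts per kilobase of annotated exon. In ctrl cells Atf4 had the highest level with a mean of 2779, followed by Psat1 with 2523, Asns with 1170, Atf5 with 1006 and Phgdh with 669. Atf3 was next with 382 per kilobase, and the lowest were Chac1 and Ppp1r15a with 230 each, Ddit3 with 216 and Trib3 with 141. The ctrl replicates of neighbours in this order overlapped, as in Asns with 571 to 1768 and Atf5 with 460 to 1552 per kilobase, except between Psat1 and Asns and between Ppp1r15a and Ddit3. In Zfp276cko cells Atf4 was again the highest with 2709 per kilobase. Atf5 with 1193, Psat1 with 1141, Atf3 with 1010 and Asns with 977 then lay close together. Atf3 thus moved from the 6th to the 4th place, and Ddit3 with 581 from the 9th to the 6th, above Phgdh with 534, while Ppp1r15a with 398, Chac1 with 263 and Trib3 with 209 followed. Replicates of neighbours did not overlap in the Zfp276cko order.

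A wider set of genes that Atf4 is known to induce also held genes with higher and with lower values. Of 20 tested genes, 3 were higher by unadjusted p within the limits above (5.11% of all genes) and 1 was lower (3.02%). DESeq2 also called 3 higher (2.79%) and 1 lower (2.16%), and the median log2 difference was −0.07, or 0.67 without ctrl replicate 1. Slc7a11, the cystine transporter of glutathione synthesis, counted 1560 and 2258 for ctrl as against 5319 and 5487 for Zfp276cko, a 2.83-fold difference (adjusted p 0.123 in edgeR, 4.73e-08 in DESeq2). Cebpb, a leucine zipper factor that pairs with CHOP, counted 628 and 726 for ctrl as against 1421 and 1467 for Zfp276cko, with a log2 difference of 1.09 ± 0.12 (SE; adjusted p 0.103 in edgeR, 3.48e-07 in DESeq2). Of the annotated exon bases of Cebpb, 312 of 1504 overlap Tmem189 on the opposite strand, and the strand setting of the counting is not known. Gdf15, a secreted stress factor, was scarce with 11.9 and 21.4 for ctrl as against 97.7 and 86.8 for Zfp276cko, with a log2 difference of 2.46 ± 0.39 (SE; adjusted p 0.134 in edgeR, 0.00213 in DESeq2). The Zfp276cko values of these 3 genes were above the ctrl values, which were less than 2-fold apart. The genes were picked by small unadjusted p-values in edgeR, which favours such an order. Among the 20 genes, Zfp276cko values were the highest in 3 (26.8% of all genes) and the lowest in 4 (23.7%). Vldlr, a lipoprotein receptor, counted 3827 and 3263 for ctrl as against 2242 and 2248 for Zfp276cko (log2 difference −0.66 ± 0.12 SE, adjusted p 0.150 in edgeR, 0.00213 in DESeq2).

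Another 6 of these 20 genes had ctrl replicate 1 at least 2-fold above ctrl replicate 2, and were named after their values were seen. They were the amino acid transporters Slc7a1, Slc7a3 and Slc7a5, Cth of cysteine synthesis, the translation repressor Eif4ebp1 and the growth factor Vegfa. Slc7a3 counted 539 and 34.9 for ctrl as against 88.7 and 98.8 for Zfp276cko. Slc7a5 counted 7501 and 1392 for ctrl as against 2840 and 2779 for Zfp276cko. In all 6 the Zfp276cko values lay between the ctrl values, which a wide gap between the ctrl replicates makes likely by itself. The share among all genes with such a gap was not computed. Among 9 enzymes of serine, proline and one-carbon metabolism, 3 had ctrl replicate 1 at least 2-fold higher, and 7 had it higher at all. Pycr1, which makes proline, was the 1 enzyme of these 9 that passed by unadjusted p within the limits (8.13% of all genes). It counted 1825 and 641 for ctrl as against 404 and 367 for Zfp276cko, with a log2 difference of −1.68 ± 0.54 (SE; adjusted p 0.278 in edgeR, 0.0178 in DESeq2). Its lowest values were in the Zfp276cko libraries, as for Psat1. Of the 9 enzymes, 2 had this order, Pycr1 and Mthfd1l, a share close to the 23.7% of all genes. Of 20 cytosolic aminoacyl-tRNA synthetases 0 passed in this way (8.13% of all genes) and 0 were called by DESeq2 (4.95%), shares that would give few genes in a list of this size, and 19 were higher in ctrl replicate 1 than in ctrl replicate 2, with a median log2 difference of 0.39.

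**Figure D3:**
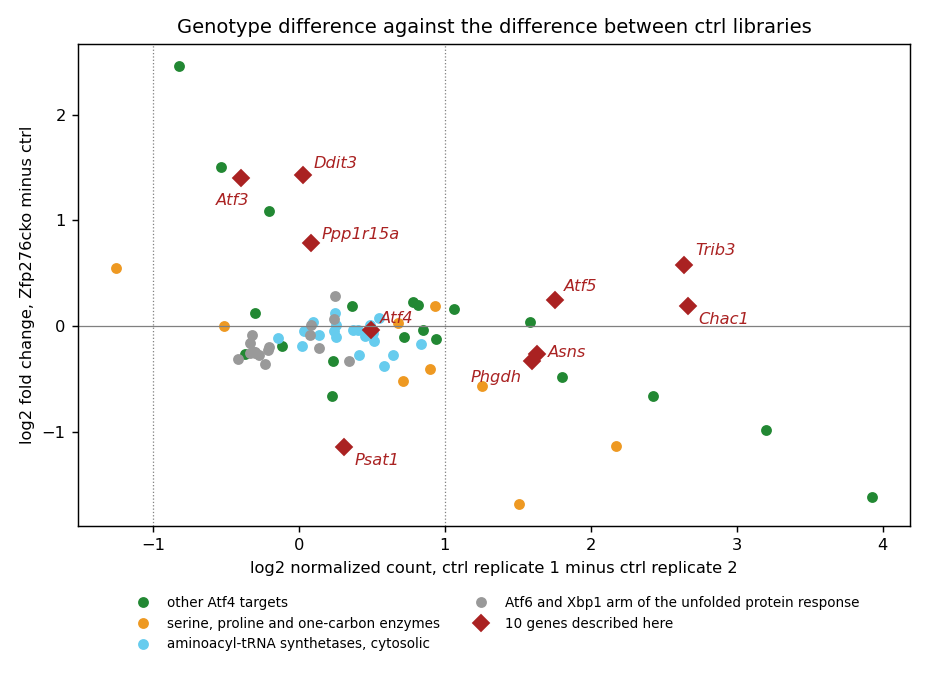
Each point is a gene, with the log2 difference between ctrl replicates 1 and 2 on the horizontal axis and the log2 difference, Zfp276cko minus ctrl, on the vertical axis, and dotted lines mark a 2-fold gap between ctrl replicates. Atf3, Ddit3 and Ppp1r15a lie high near a ctrl gap of 0, and Atf5, Trib3, Chac1, Asns and Phgdh lie to the right of the 2-fold line with fold changes between −0.33 and 0.57. Both axes use the ctrl libraries.

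Markers of other cells also differed between the ctrl replicates. Summed normalized counts of 12 microglial markers were 55934 and 28756 for ctrl as against 39454 and 41200 for Zfp276cko. The Zfp276cko values of 10 of the 12 lay between the ctrl values, against 27.7% of all genes. For fibroblast and vessel markers, of which 9 of 10 were tested, the sums were 8218 in ctrl replicate 1 and between 298 and 433 in the other libraries. The collagen genes Col1a1, Col1a2 and Col3a1, with 2522, 2703 and 2381 in ctrl replicate 1, made up most of that sum. The vessel marker Pecam1 was the 1 gene of the 9 with both Zfp276cko values above ctrl (26.8% of all genes). It counted 106 and 93.4 for ctrl as against 153 and 161 for Zfp276cko (log2 difference 0.66 ± 0.21 SE, edgeR adjusted p = 0.282). The sums of 8 neuronal markers were 15859 and 24947 for ctrl as against 15597 and 17023 for Zfp276cko, of which Map2 made up the most. Of these 8 markers, 7 were at least 2-fold lower in ctrl replicate 1 than in ctrl replicate 2, with a median log2 difference of −3.81, and 6 had Zfp276cko values between those of ctrl. The astrocyte marker Gjb6 and the endothelial marker Cldn5 had no count in any library. Among the 10 stress genes the ratio of ctrl replicate 1 to ctrl replicate 2 ranged from 0.76 for Atf3 to 6.34 for Chac1. It was 1.02 for Ddit3, 1.06 for Ppp1r15a and 1.24 for Psat1. The part of these other cells in the levels of the 10 stress genes was not tested.

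Upstream of Atf4, the kinases that phosphorylate eIF2 showed different orders. Eif2ak2 (PKR), which senses double-stranded RNA and is induced by interferon, counted 1903 and 734 for ctrl as against 4822 and 5223 for Zfp276cko. Its log2 difference was 1.93 ± 0.49 (SE; adjusted p 0.208 in edgeR, 6.84e-04 in DESeq2). Eif2ak3 (PERK), the kinase of endoplasmic reticulum stress, counted 2030 and 1780 for ctrl as against 1488 and 1429 for Zfp276cko (log2 difference −0.39 ± 0.11 SE, edgeR adjusted p = 0.232). Eif2ak1 (HRI), which responds to haem, counted 2176 and 2244 for ctrl as against 1766 and 1798 for Zfp276cko (log2 difference −0.31 ± 0.08 SE, edgeR adjusted p = 0.224). Eif2ak4 (GCN2), the sensor of amino acid shortage, had overlapping values of 971 and 742 for ctrl as against 1023 and 884 for Zfp276cko. Of the 14 kinases, eIF2 and eIF2B subunits and regulators, Eif2ak2 was the 1 gene that was higher by unadjusted p within the limits, a share close to the 5.11% of all genes, 0 were lower (3.02%), and the median log2 difference was −0.07. These are levels of mRNA and not of kinase activity, and phosphorylation of eIF2 was not measured.

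Target genes of the other arms of the unfolded protein response, which act through Atf6 and Xbp1, mostly had slightly lower values in Zfp276cko cells. Of 17 genes, the Zfp276cko values were the lowest in 12 and the highest in 1, compared to 23.7% and 26.8% of all genes. The differences were small, between −0.36 and 0.28 on the log2 scale with a median of −0.23. By unadjusted p within the limits 0 of the 17 passed (8.13% of all genes), and DESeq2 called 0 (4.95%). Hspa5, the main chaperone of the endoplasmic reticulum, counted 10988 and 13613 for ctrl as against 10170 and 10620 for Zfp276cko, and was named with Xbp1 and Atf6 after the values were seen. Its log2 difference of −0.24 ± 0.15 (SE; edgeR adjusted p = 0.498) was opposite in sign to that of Ddit3. For Xbp1 and Atf6 the difference was −0.33 and −0.08 (edgeR adjusted p 0.382 and 0.695). The difference between these genes and the 10 stress genes was not tested.

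**Figure D4:**
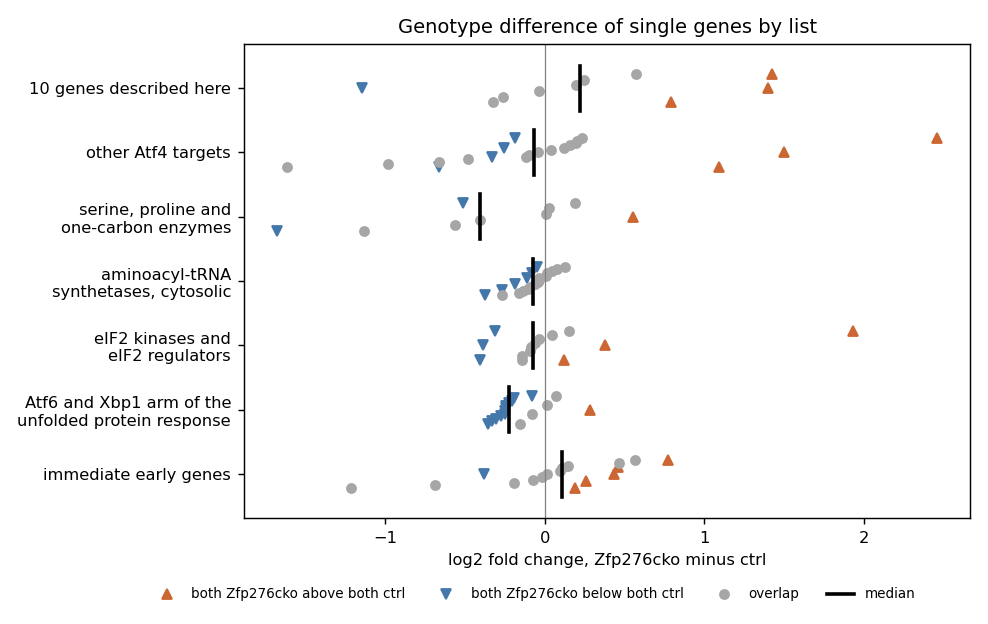
Log2 difference, Zfp276cko minus ctrl, of the tested genes of 7 lists, with the median of each list as a black bar. Upward orange triangles are genes whose Zfp276cko values all exceed the ctrl values, downward blue triangles the reverse, and grey circles overlap. The 10 genes spread from −1.14 to 1.43, whereas the 17 genes of the Atf6 and Xbp1 arm stay between −0.36 and 0.28.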

How the data were processed

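The authors prepared stranded mRNA libraries, sequenced 101 bp single-end reads, mapped them to mm10 with STAR (version 2.5.4a) and deposited whole-number counts per gene, without normalization or filtering. The paper names HTSeq count on Ensembl genes, while the submitters' processing notes list featureCounts 1.5.1. The strand setting is not given in the sources used here. Counts were analysed with R 4.3.3, edgeR 4.0.16 and DESeq2 1.42.0. Genes were kept by filterByExpr (15766 genes), scaled with TMM and tested by the quasi-likelihood test of edgeR, with p-values adjusted over all genes (Benjamini-Hochberg). DESeq2, the tool of the study, was an alternative. Calls required adjusted p-values of 0.05 or less, a log2 difference of 0.6 or more in size and a mean of 20 or more. Standard errors and intervals (95%) come from the fit. With 2 libraries against 2, an exact permutation test cannot go below 0.333. Exon lengths and positions came from GENCODE M21 (GRCm38), promoters from RefSeq (GRCm38.p6). The fits were tested on simulated counts in which both genotypes had the same spread, unlike these data. How they behave with unequal spread was not tested. Differences between libraries used log2 of the normalized count plus 0.5. The 10 genes and the lists were chosen with earlier results of these data known. Named were the 10 genes, the 4 eIF2 kinases, Zfp276 and up to 6 genes per list whose unadjusted p was 0.05 or less and whose log2 difference was 0.6 or more in size. Others were named after their values were seen. Alternatives were other size factors, filters, tests and call rules, a replicate block, and leaving out each library.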

Additional observations from a re-analysis of the deposited data

How the results depend on the processing

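Precision was limited by 2 libraries per genotype and by the gap between the ctrl replicates. DESeq2 size factors, a filter of at least 10 counts in every library, calls without limits on fold change and mean, and the replicate block left 0 genes called in either direction. With all genes kept, low counts included, 8 were called higher and 0 lower, and 0 of the 10. DESeq2 called 423 genes higher, 327 lower and 4 of the 10 genes, and the exact test of edgeR 407, 264 and 4. An unadjusted p of at most 0.05 gave 806, 476 and 4. Log2 fold changes under DESeq2 and the exact test, both past the threshold, were 1.39 and 1.40 for Atf3, 1.41 and 1.43 for Ddit3, 0.77 and 0.79 for Ppp1r15a, and −1.16 and −1.14 for Psat1. No shift shared by libraries of the same replicate number was seen (correlation of deviations 0.0067). With 2 libraries per genotype this cannot exclude that they were prepared together. The replicate block changed no call, with log2 fold changes of 1.43 for Ddit3 and −1.14 for Psat1.

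When a library was left out, the genotype left with 1 library was assumed to vary like the other. Genes called higher ranged from 0 to 1799, genes called lower from 0 to 1253 and called genes among the 10 from 0 to 9. The counts were 0 whenever a Zfp276cko library was left out, and above 0 when ctrl replicate 1 (1693 higher, 951 lower, 9 of the 10) or ctrl replicate 2 (1799 higher, 1253 lower, 7 of the 10) was left out, since only the spread of the Zfp276cko libraries then remained. Log2 fold changes ranged from −0.27 to 0.23 for Atf4, from 1.22 to 1.60 for Atf3, from −0.39 to 1.38 for Atf5, from 1.38 to 1.47 for Ddit3, from −0.23 to 2.43 for Trib3, from −0.87 to 0.78 for Asns, from −0.61 to 2.07 for Chac1, from −1.30 to −0.98 for Psat1, from −0.93 to 0.68 for Phgdh and from 0.74 to 0.83 for Ppp1r15a. Atf4 (0.23), Asns (0.78) and Phgdh (0.68) changed sign without ctrl replicate 1, and Atf5 (−0.39), Trib3 (−0.23) and Chac1 (−0.61) without ctrl replicate 2. The median of other Atf4 targets ranged from −0.35 to 0.67, the highest without ctrl replicate 1, and that of immediate early genes from 0.089 to 0.339, the highest without ctrl replicate 2.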

Other observations

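Immediate early genes, which many stimuli induce within minutes and among which Atf3 is often counted, were followed in a list of 17 genes without Atf3. The Zfp276cko values were the highest for 5 of them and the lowest for 1, compared to 26.8% and 23.7% of all genes. By unadjusted p in edgeR, within the limits on difference and mean, 0 genes passed (8.13% of all genes), DESeq2 called 0 (4.95%), and the median log2 difference was 0.11. Junb, a partner of Atf3 named after its values were seen, counted 659 and 1209 for ctrl as against 1495 and 1701 for Zfp276cko (normalized counts; log2 difference 0.77 ± 0.32 SE, edgeR adjusted p = 0.353). Fos, also named after its values were seen, counted 794 and 580 for ctrl as against 681 and 678 for Zfp276cko, so that its values overlapped, unlike those of Atf3.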
